A study of Homo sapiens with 6 samples.

Results

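The 10 genes described here encode the steps by which a human cell breaks down, moves and exports heme and stores or releases its iron: HMOX1, HMOX2, BLVRA, BLVRB, FLVCR1, SLC48A1, ABCG2, FTH1, FTL and SLC40A1. They were chosen by name from the 33514 gene symbols of the count tables, as a list of heme degradation, heme transport, ferritin and iron export genes. Earlier results of these data were known when the list was made. All 10 were present in the tables, and 8 had enough reads to be tested. ABCG2 and SLC40A1 did not.

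Heme oxygenases open the heme ring and release biliverdin, carbon monoxide and iron. Biliverdin reductases turn biliverdin into bilirubin, ferritin stores the freed iron, and ferroportin, the product of SLC40A1, exports it. Heme itself can leave the cell through FLVCR1 and ABCG2, while SLC48A1 moves heme out of endosomes and lysosomes into the cytosol. In many cells the repressor BACH1 holds down HMOX1 and ferritin genes until heme binds it, and the activator NRF2 acts on the same genes. Ferritin output is also set at translation, through iron responsive elements in the messenger RNA, which RNA levels do not show.

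RNA was sequenced from PC3, a prostate cancer cell line of bone metastasis origin, in 3 groups of 2 libraries. The groups were untreated cells, cells with 50 µM heme in the culture medium for 2 h, and cells with 50 µM heme for 4 h. All were grown in RPMI with fetal bovine serum and antibiotics, and the labels name no vehicle for the untreated cells. They also name no untreated cells kept for 2 h or 4 h. Changes due to heme therefore cannot be told apart from those due to its addition or the handling. PC3 is a single cell line, and nothing in the labels says that its replicates came from separate cultures. The p-values therefore reflect library-to-library spread, which may be technical only.

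Each library had from 53129400 to 55537600 reads assigned to genes. The 5 epithelial markers summed to between 2134 and 2429 CPM (read counts scaled to library size) in every library, and 9 red cell genes to at most 0.247 CPM. Replicates lay farthest apart at 2 h, where the median gene differed by 0.17 log2 units between the libraries, against 0.09 in untreated cells and 0.13 at 4 h. Replicate 1 lay farther from the untreated mean than replicate 2 for 75.6% of the 5136 genes called at 2 h. Fold changes are given on the log2 scale with a standard error (SE) and rest on n = 2 libraries per group. Tests are edgeR's quasi-likelihood F-tests, adjusted by Benjamini and Hochberg's method over all 16209 tested genes, and a gene was called at an adjusted p under 0.05.

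After 2 h of heme, 5 of the 8 tested genes were called different from untreated cells. HMOX1, SLC48A1 and FTH1 rose, and HMOX2 and FLVCR1 fell. Of all tested genes 31.7% were called at that time, 15.9% higher and 15.8% lower, so a count of 5 in 8 is read against a transcriptome in which about as many genes rose as fell. At 4 h only HMOX1 of the 8 was called, at a time when 0.0308% of all tested genes were called, 0.0247% higher and 0.00617% lower. Between the heme groups, HMOX2 and FLVCR1 were higher and SLC48A1 was lower at 4 h than at 2 h, against 28.1% of all genes called in that comparison, 14% higher and 14.1% lower. The median log2 fold change of the 8 genes was 0.14 at 2 h and 0.05 at 4 h, and that of all tested genes 0.02 and -0.0028. The 2 h and 4 h comparisons share the untreated libraries. The 2 h libraries enter the comparison with untreated cells and that of 4 h with 2 h with opposite sign, so their spread favours opposite signs there. Leaving out single libraries changed the count called at 2 h and for 4 h against 2 h. The share of all genes called in those fits is not given here, so such counts cannot be set against it.

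**Figure D1:**
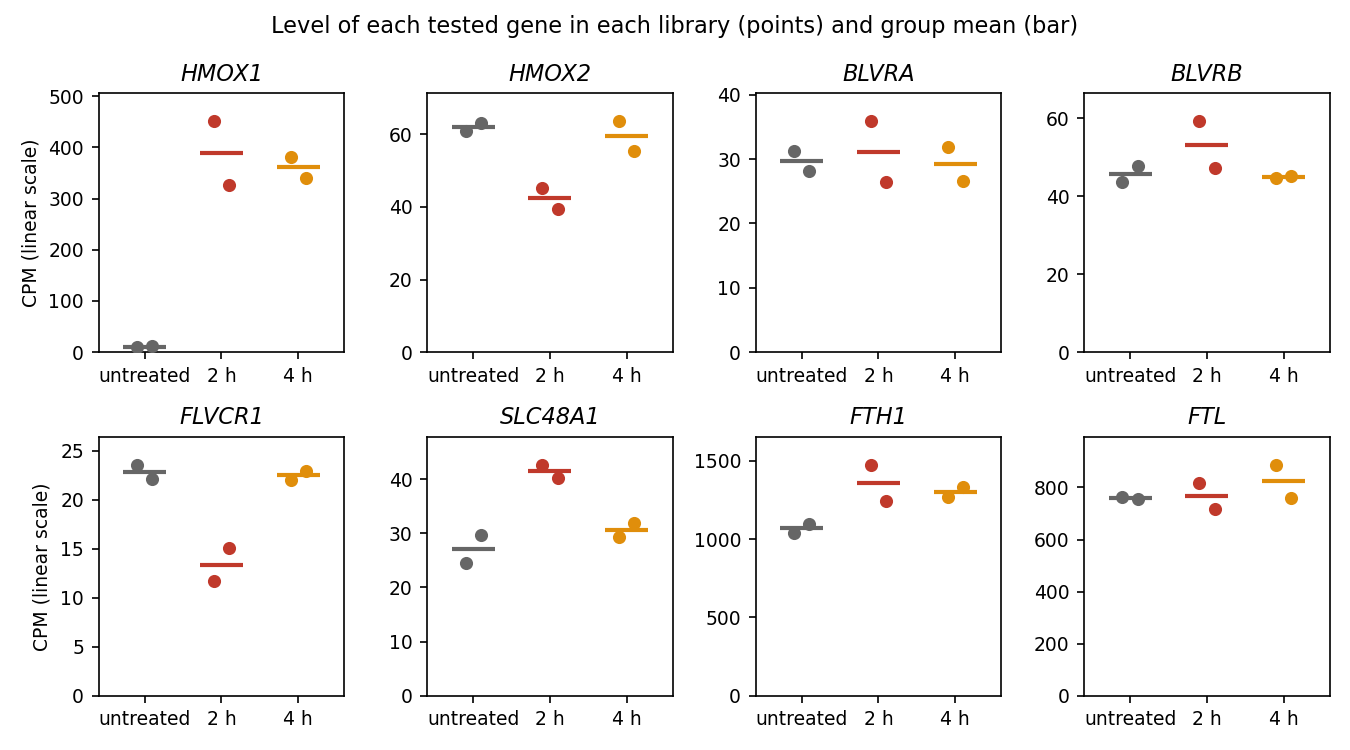
CPM of the 8 tested genes in each library (points) with the group mean (bar), on linear axes from 0, for untreated cells and cells given heme for 2 h or 4 h. HMOX1 lay between 328 and 451 CPM in all 4 heme libraries, SLC48A1, HMOX2 and FLVCR1 left the untreated range at 2 h and were back near it at 4 h, and FTL overlapped between the groups.

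HMOX1 encodes heme oxygenase 1, the inducible enzyme of heme breakdown. It had 10.4 and 11.4 CPM in untreated cells, 451 and 328 CPM after 2 h of heme, and 382 and 341 CPM after 4 h. The heme libraries lay far above the untreated ones at both times, and the 4 h libraries lay between the pair of 2 h libraries. HMOX1 rose 35.8-fold at 2 h (log2 5.16, SE 0.16, edgeR adjusted p = 3.79e-11) and was 33.2-fold higher at 4 h (log2 5.05, SE 0.15, edgeR adjusted p = 4.84e-11). At 4 h this was the largest rise of all 16209 tested genes. At 2 h it held place 2 among all 16209 tested genes, and was the largest among the 11931 genes with a mean of at least 2 CPM. The log2 difference between 4 h and 2 h was -0.11, with a 95% interval from -0.38 to 0.16 (edgeR adjusted p = 0.566). That difference depended on which 2 h library was used: it was 0.15 without 2 h replicate 1, and -0.30 without 2 h replicate 2, where it was called (edgeR adjusted p = 0.0352).

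Per kilobase of exon, HMOX1 moved from the middle of the expressed genes to near their top. It averaged 4.53 ± 0.300 CPM per kb in untreated cells, 162 ± 36.4 at 2 h and 150 ± 12.0 at 4 h (SD, n = 2). Its place among 16094 tested genes with a known length was 7288 in untreated cells, 178 at 2 h and 225 at 4 h. The gene (ENSG00000100292.16) lies on chromosome 22 from 35380361 to 35394214 in the GENCODE annotation of GRCh38, with no exon shared with another annotated gene.

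HMOX2 encodes heme oxygenase 2, the constitutive form of the enzyme. It had 61.0 and 63.1 CPM in untreated cells, 45.3 and 39.4 CPM at 2 h, and 63.6 and 55.5 CPM at 4 h. Both 2 h libraries lay below all the others, and the 4 h libraries spanned the untreated ones. HMOX2 fell at 2 h (log2 -0.55, SE 0.11, edgeR adjusted p = 0.00245) and was higher at 4 h than at 2 h (log2 0.49, SE 0.11, edgeR adjusted p = 0.00542). That last call was lost without 4 h replicate 1 (log2 0.39, edgeR adjusted p = 0.0745). The 4 h level differed from the untreated one by a log2 of -0.06, with a 95% interval from -0.30 to 0.18.

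HMOX1 made up 14.5% and 15.3% of the reads of both genes together in untreated cells, 90.9% and 89.3% at 2 h, and 85.7% and 86.0% at 4 h. The untreated share with the higher value had an exact 95% binomial interval from 14.2% to 16.4%, which covers counting error only. Scaled per kilobase, the mean HMOX1 share was 21.7% in untreated cells, 93.5% at 2 h and 90.6% at 4 h. These shares are ratios within a library, so library scaling does not enter them. Both genes together summed to 71.3 and 74.5 CPM in untreated cells, 497 and 367 CPM at 2 h, and 445 and 397 CPM at 4 h.

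**Figure D2:**
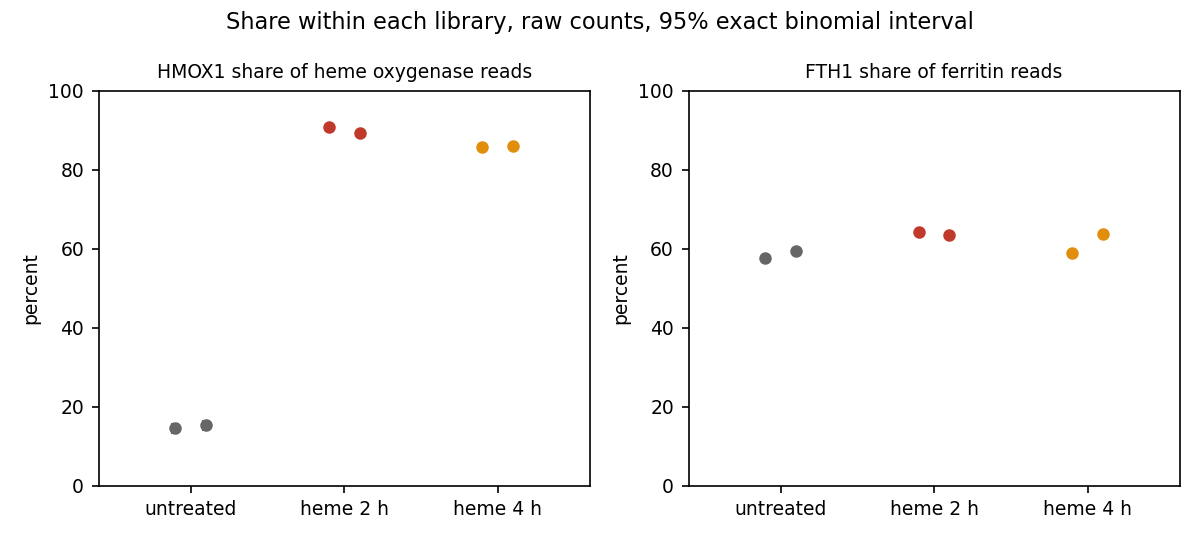
Share of HMOX1 in the reads of HMOX1 and HMOX2 (left) and of FTH1 in the reads of FTH1 and FTL (right), in percent, 1 point per library with its exact 95% binomial interval, which is often smaller than the point. The HMOX1 share was near 15% in untreated cells and between 85.7% and 90.9% in the heme libraries, while the FTH1 share stayed between 57.6% and 64.3% throughout.

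The biliverdin reductases, which act on the product of heme oxygenase, were not called at either time. BLVRA had 31.3 and 28.1 CPM in untreated cells, 35.9 and 26.4 CPM at 2 h, and 31.9 and 26.6 CPM at 4 h. BLVRB had 43.7 and 47.7 CPM in untreated cells, 59.2 and 47.3 CPM at 2 h, and 44.6 and 45.2 CPM at 4 h. The groups overlapped for BLVRA, and 1 of the 2 h libraries of BLVRB lay within the untreated range. The log2 difference of BLVRA between 2 h and untreated cells was 0.07 with a 95% interval from -0.25 to 0.38, and that of BLVRB 0.22 with an interval from -0.04 to 0.48. BLVRB was called higher at 2 h once 2 h replicate 2 was left out (log2 0.35, edgeR adjusted p = 0.0201), and lower at 4 h than at 2 h (log2 -0.38, edgeR adjusted p = 0.0148). At 4 h the log2 difference from untreated cells was -0.02 for BLVRA (interval -0.34 to 0.30) and -0.03 for BLVRB (interval -0.29 to 0.24).

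Heme transporters moved in opposite directions at 2 h. FLVCR1, which exports heme across the plasma membrane, had 23.6 and 22.1 CPM in untreated cells, 11.7 and 15 CPM at 2 h, and 22 and 23 CPM at 4 h. Both 2 h libraries lay well below all the others. FLVCR1 fell 1.71-fold at 2 h (log2 -0.78, SE 0.14, edgeR adjusted p = 0.000952). It was 1.69-fold higher at 4 h than at 2 h (log2 0.75, SE 0.14, edgeR adjusted p = 0.0012). At 4 h it differed from untreated cells by a log2 of -0.02 (95% interval -0.32 to 0.27). Its neighbour FLVCR1-DT, a noncoding gene singled out after its values were seen, had 6.21 and 6.11 CPM in untreated cells, 7.70 and 6.58 CPM at 2 h and 6.45 and 4.92 CPM at 4 h, and was not called at 2 h (log2 0.21, SE 0.18, edgeR adjusted p = 0.382).

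SLC48A1, also known as HRG1, had 24.5 and 29.6 CPM in untreated cells, 42.6 and 40.2 CPM at 2 h, and 29.4 and 31.8 CPM at 4 h. Both 2 h libraries lay above all the others, and the 4 h libraries overlapped the untreated ones. SLC48A1 rose 1.53-fold at 2 h (log2 0.62, SE 0.12, edgeR adjusted p = 0.00207) and was lower at 4 h than at 2 h (log2 -0.44, SE 0.12, edgeR adjusted p = 0.0171). The rise at 2 h was not called without untreated replicate 1 (log2 0.48, edgeR adjusted p = 0.0736). The difference between 4 h and 2 h was not called without 4 h replicate 1 (log2 -0.37, edgeR adjusted p = 0.14) or without 4 h replicate 2 (log2 -0.47, edgeR adjusted p = 0.0562). The log2 difference between 4 h and untreated cells was 0.18 (95% interval -0.09 to 0.45).

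ABCG2, the second exporter of heme, and SLC40A1, the only known exporter of iron, were at or near the limit of detection. ABCG2 had 0 and 2 reads in untreated cells, 0 and 1 at 2 h, and 1 and 7 at 4 h. SLC40A1 had 1 and 0 reads in untreated cells, 0 and 0 at 2 h, and 0 and 2 at 4 h. A count of 0 allows up to 3 reads, or between 0.0521 and 0.0581 CPM in these libraries, so differences between the groups were not detectable at this depth.

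**Figure D3:**
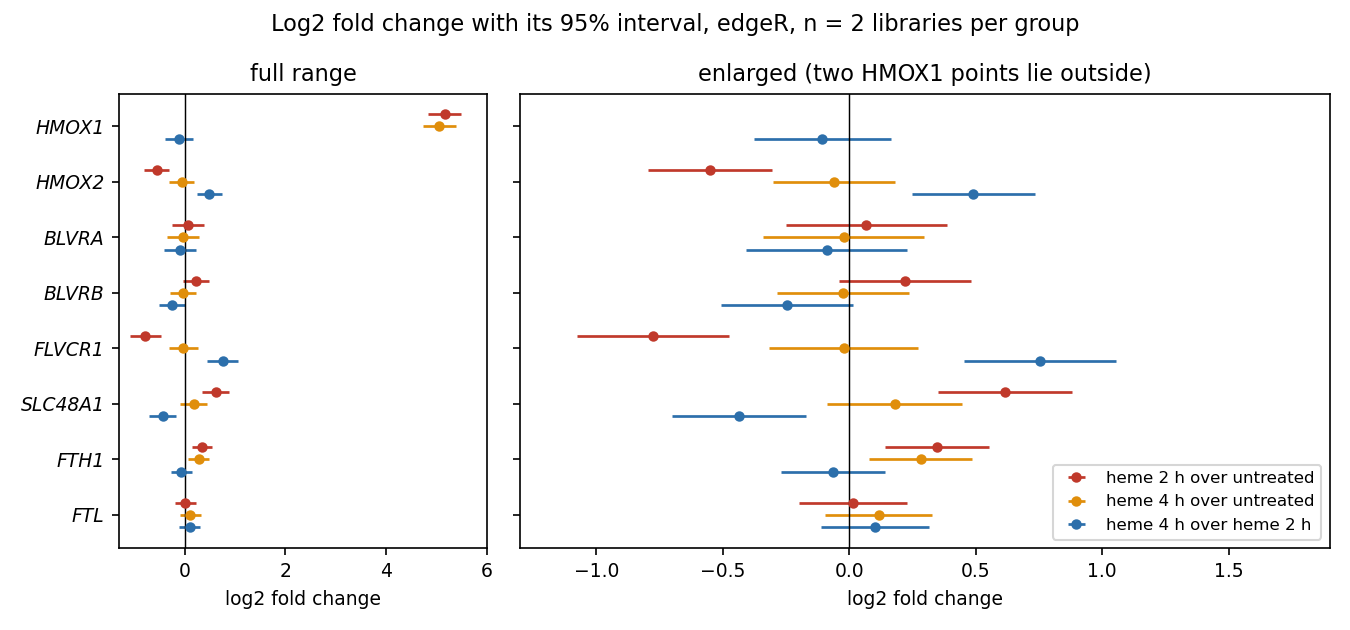
Log2 fold change of the 8 tested genes with its 95% interval (edgeR, n = 2 libraries per group, not adjusted for the number of genes), over the full range (left) and enlarged (right). HMOX1 lies above log2 5 in both comparisons with untreated cells. All genes shown but FTL have opposite signs in the comparison of 2 h with untreated cells and of 4 h with 2 h. The 2 h libraries enter these with opposite sign, so their spread alone favours such a reversal. HMOX2, FLVCR1 and SLC48A1 were called in both.

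The ferritin genes were among the most abundant messenger RNAs already without heme. In CPM per kb FTL held place 19 and FTH1 place 37 of 16094 genes in untreated cells. FTH1, the heavy chain, which oxidises iron for storage, had 1040 and 1099 CPM in untreated cells, 1476 and 1243 CPM at 2 h, and 1270 and 1331 CPM at 4 h. All 4 heme libraries lay above both untreated ones. FTH1 rose 1.27-fold at 2 h (log2 0.35, SE 0.10, edgeR adjusted p = 0.0136). Leaving out any 1 of 3 libraries ended this call: it was at log2 0.30 without untreated replicate 1 (edgeR adjusted p = 0.144), 0.36 without untreated replicate 2 (edgeR adjusted p = 0.065) and 0.21 without 2 h replicate 1 (edgeR adjusted p = 0.119). At 4 h FTH1 was at log2 0.28 (SE 0.10), with an unadjusted edgeR p of 0.0101 and an adjusted p of 1 over all genes, and it was not called. The log2 difference between 4 h and 2 h was -0.06 (95% interval -0.27 to 0.14).

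FTL, the light chain, which forms the rest of the ferritin shell, had 765 and 754 CPM in untreated cells, 819 and 716 CPM at 2 h, and 887 and 759 CPM at 4 h. The groups overlapped, and FTL was not called. Its log2 difference from untreated cells was 0.01 at 2 h (95% interval -0.20 to 0.23) and 0.12 at 4 h (interval -0.10 to 0.33). FTH1 made up 57.6% and 59.3% of ferritin reads in untreated cells, 64.3% and 63.4% at 2 h, and 58.9% and 63.7% at 4 h. The 2 h libraries lay above both untreated ones in that share, while 1 of the 4 h libraries lay within the untreated range. Per kilobase the mean share was 37.8% in untreated cells, 43.3% at 2 h and 40.7% at 4 h, since the annotated exons of FTH1 are longer than those of FTL.

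Per kilobase, FTH1 stood at 512 and 541 CPM per kb in untreated cells, 727 and 612 at 2 h, and 626 and 656 at 4 h. HMOX1 stood at 4.31 and 4.74 CPM per kb in untreated cells, 188 and 136 at 2 h, and 159 and 142 at 4 h. The 2 h libraries of both genes lay apart, with replicate 1 the higher. Both ferritin genes together summed to 1805 and 1853 CPM in untreated cells, 2295 and 1959 CPM at 2 h, and 2158 and 2090 CPM at 4 h. In RNA from a whole culture, fewer cells with a transcript and less of it per cell cannot be told apart.

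Exons of 3 of the genes overlap genes on the other strand in the annotation, and the strand setting of the counting is not given in the sources used here. FTH1 (ENSG00000167996.15, chromosome 11 from 61959718 to 61967660) shares 1267 exonic bases with BEST1, a gene with 77 and 104 reads in untreated cells, 196 and 129 at 2 h and 97 and 115 at 4 h. BEST1 itself was called higher at 2 h (log2 0.74, SE 0.26, edgeR adjusted p = 0.0432). HMOX2 (ENSG00000103415.11, chromosome 16 from 4474690 to 4510347) shares 228 bases with NMRAL1, which was not called at 2 h (log2 0.17, SE 0.11). SLC48A1 (ENSG00000211584.13, chromosome 12 from 47753916 to 47782753) shares 83 bases with RAPGEF3, called higher at 2 h (log2 0.56, SE 0.19, edgeR adjusted p = 0.0373), and 32 with HDAC7, which was not called (log2 -0.09, SE 0.11). Depending on that setting, reads in the shared stretches could be set aside as ambiguous and counted for neither partner. For FTH1 this could touch 1267 of 2030 exonic bases, so its level, its place and its share of ferritin reads carry this limit. The part of the partners in these results was not tested. FLVCR1 (ENSG00000162769.12, chromosome 1 from 212858255 to 212899363) shares no exon with another gene.

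Promoter windows of RefSeq (GRCh38.p14, from -250 to 50 around a start) were matched for 8 of the 10 genes, all but HMOX1 and FTH1. They were searched on both strands for the antioxidant response core TGACNNNGC, the AP-1 core TGACTCA and 4 runs of GGG with 1 to 7 bases between them, the letters of a G-quadruplex, a guanine fold that the series concerns. The bases after the start were also searched for CAGTG, the loop core of an iron responsive element. The stretches from -100 to -1 of the 3 transporter and heme oxygenase genes called at 2 h, and in the opposite direction between 4 h and 2 h, are shown first, and 30 bases of FTL last. Capitals mark a match.
SLC48A1, chr12:47773138-47773237, plus strand: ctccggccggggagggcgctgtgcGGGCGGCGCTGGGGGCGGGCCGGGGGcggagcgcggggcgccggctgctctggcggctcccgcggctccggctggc
FLVCR1, chr1:212858175-212858274, plus strand: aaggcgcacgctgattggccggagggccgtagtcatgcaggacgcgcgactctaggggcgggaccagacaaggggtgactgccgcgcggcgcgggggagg
HMOX2, chr16:4474636-4474735, plus strand: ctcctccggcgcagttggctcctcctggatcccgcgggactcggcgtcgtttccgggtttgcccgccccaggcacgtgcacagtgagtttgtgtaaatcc
FTL, chr19:48965329-48965358, plus strand: gtctgtctcttgcttcaaCAGTGtttggac

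Of the genes called at 2 h, SLC48A1 held a run of GGG letters, from -76 to -51 on the coding strand, while the windows of FLVCR1 and HMOX2, which has a pair of RefSeq starts, held no match. The letters cagtg in the HMOX2 stretch lie before its start, where they were not searched. Of the genes not called or not tested, BLVRA, BLVRB and SLC40A1 held no match. ABCG2 held the GGG letters in 3 of its 5 windows and TGACNNNGC in another, from 2 to 10 after the start. TGACTCA was in none of the 13 windows. Of all 35116 promoter windows, 25% held the GGG letters, 13.4% TGACNNNGC and 4.95% TGACTCA. FTL held the GGG letters on the other strand from -233 to -205, and CAGTG from 39 to 43 after its start, which 6.48% of windows held after the start. Such matches describe letters in a window and are not evidence of binding or folding.

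Among 18 other targets of BACH1 and NRF2, 5 rose at 2 h and 2 fell (median log2 0.08), when 15.9% of all tested genes were called higher and 15.8% lower. The cystine transporter SLC7A11 (log2 1.16, SE 0.14), OSGIN1 (log2 0.82, SE 0.16), the autophagy receptor SQSTM1 (log2 0.56, SE 0.10) and both subunits of the enzyme that begins glutathione synthesis, GCLM (log2 0.56, SE 0.10) and GCLC (log2 0.52, SE 0.10), rose. The thioredoxin TXN (log2 -0.52, SE 0.10) and the peroxiredoxin PRDX1 (log2 -0.46, SE 0.10) fell. At 4 h edgeR and DESeq2 called GCLM alone of this list, and 6 of the 18 genes had an unadjusted edgeR p under 0.05, against 583 of all 16209 genes. GCLM had 64.2 and 63.8 CPM in untreated cells, 89.5 and 99.7 CPM at 2 h, and 137 and 129 CPM at 4 h, where it was 1.05 log2 units higher than in untreated cells (SE 0.10, edgeR adjusted p = 1.6e-04). The 4 h libraries lay above the 2 h ones and those above the untreated ones. NQO1 (log2 0.27 at 4 h, SE 0.10) and the thioredoxin reductase TXNRD1 (log2 0.31, SE 0.09), classical targets of NRF2, were not called at either time. Between the heme groups, GCLM (log2 0.49), TXN (0.43) and PRDX1 (0.37) were higher at 4 h than at 2 h, and SLC7A11 (-1.01) and SQSTM1 (-0.31) were lower. DESeq2 did not call SQSTM1 in that comparison and did call TXNRD1. There edgeR called 28.1% of all tested genes, 14% higher and 14.1% lower.

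**Figure D4:**
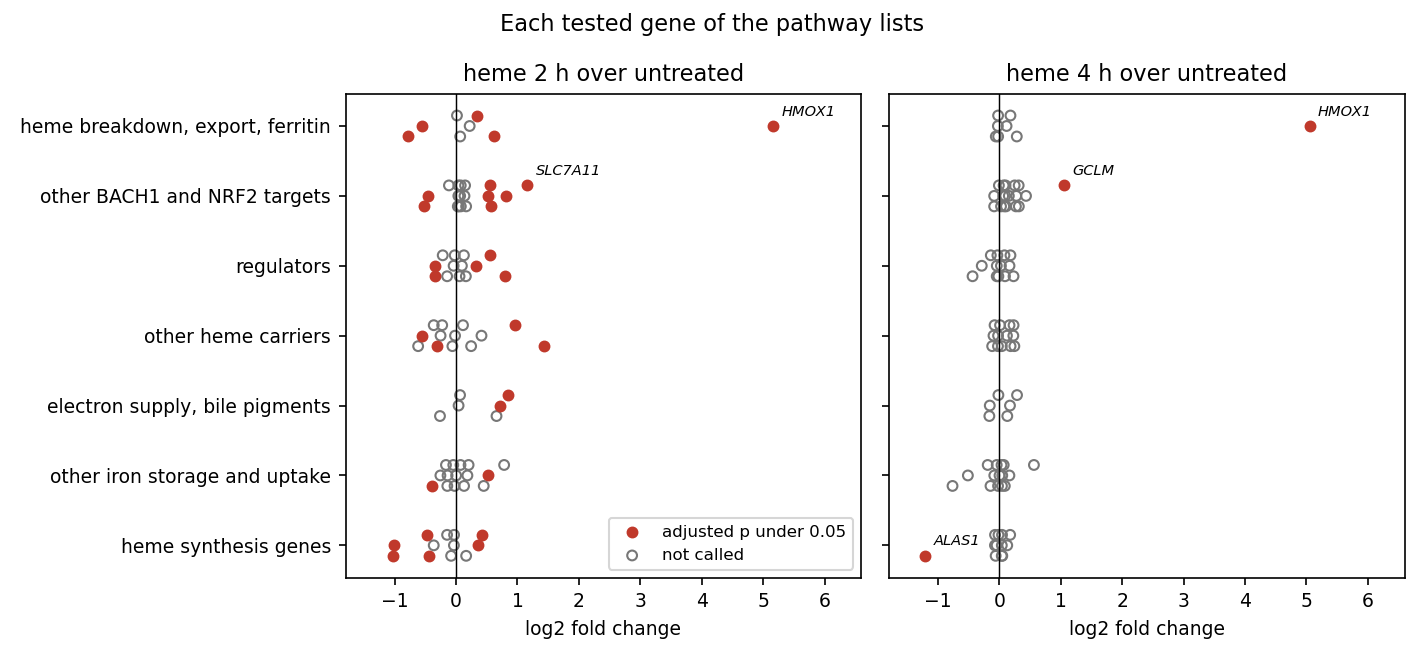
Log2 fold change of every tested gene of the pathway lists at 2 h (left) and 4 h (right) over untreated cells, with genes called by edgeR filled. At 4 h the filled points are HMOX1, GCLM and ALAS1.

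Among 13 regulators of heme and iron responses, 3 rose and 2 fell at 2 h (median log2 0.06). Of all tested genes 15.9% were called higher and 15.8% lower at that time. The small MAF genes MAFF (log2 0.79, SE 0.11) and MAFG (log2 0.56, SE 0.12), whose proteins pair with both BACH1 and NRF2, rose with NFE2L1 (log2 0.33, SE 0.10). CUL3, which helps degrade NRF2 (log2 -0.34, SE 0.11), and IREB2, an iron sensor that binds iron responsive elements (log2 -0.34, SE 0.12), fell. BACH1 had 80.1 and 75.0 CPM in untreated cells, 74.7 and 94.7 CPM at 2 h, and 66.5 and 60.6 CPM at 4 h. Its 4 h libraries lay below all the others, and it was lower at 4 h than at 2 h (log2 -0.42, SE 0.12, edgeR adjusted p = 0.0177). Its log2 difference between 4 h and untreated cells was -0.29 (SE 0.12) and was not called. The gene of NRF2, NFE2L2, was not called at 2 h (log2 -0.22, SE 0.11) or 4 h (log2 0.02, SE 0.11). At 4 h edgeR and DESeq2 called no regulator. An unadjusted edgeR p under 0.05 was reached by 2 of the 13, against 583 of all 16209 genes. These were BACH1 and BACH2 (log2 -0.44, SE 0.20). BACH2 was low, with 4.44 and 3.54 CPM in untreated cells and 3.16 and 2.73 CPM at 4 h. MAFF (log2 -0.93) and MAFG (log2 -0.33) were, like BACH1, lower at 4 h than at 2 h. DESeq2 did not call MAFG there, and called CUL3, IREB2 and KEAP1 besides. The share of all tested genes that edgeR called for 4 h against 2 h was 28.1%.

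Of 13 tested genes of other heme transporters and carriers, LRP1, the receptor that takes up hemopexin with its heme (log2 0.96, SE 0.15), and HPX, which encodes hemopexin (log2 1.44, SE 0.46, on 55 and 33 reads at 2 h against 11 and 19 in untreated cells), rose at 2 h. ABCB10 (log2 -0.55, SE 0.16) and PGRMC1 (log2 -0.31, SE 0.10) fell. The share of all tested genes called at 2 h was 31.7%. FLVCR2, the close relative of FLVCR1, had at most 1.53 CPM in any library and was not called (log2 -0.62 at 2 h, SE 0.35). DESeq2 did not call HPX. LRP1 was lower (log2 -0.73) and ABCB10 (0.47) and the folate and heme carrier SLC46A1 (0.47) were higher at 4 h than at 2 h, while ABCC5 was not called (log2 0.16 at 4 h over untreated cells). Of 6 tested genes of electron supply and bile pigment handling, ABCC3 (log2 0.72, SE 0.12) and SLC22A18 (log2 0.84, SE 0.18) rose at 2 h. POR, the reductase that feeds electrons to heme oxygenase, was at log2 0.07 (SE 0.11) and was not called. ABCC3 (log2 -0.55), SLC22A18 (-0.56) and ABCC2 (-0.82) were lower at 4 h than at 2 h, the last not called by DESeq2. In that comparison edgeR called 28.1% of all tested genes. At 4 h over untreated cells edgeR and DESeq2 called no gene of either list, and none had an unadjusted p under 0.05.

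Of 15 tested genes of other iron storage, chaperones and uptake, STEAP2 (log2 0.52, SE 0.12) rose and TFRC, the transferrin receptor (log2 -0.39, SE 0.11), fell at 2 h. Of all tested genes 31.7% were called at that time. NCOA4, the receptor that delivers ferritin for degradation, was at log2 0.0012 at 2 h and 0.05 at 4 h (SE 0.09 each). STEAP2 (log2 -0.49), CYBRD1 (-0.96) and the iron importer SLC11A2 (-0.35) were lower at 4 h than at 2 h, of which DESeq2 did not call CYBRD1 (38 and 32 reads at 4 h, 69 and 79 at 2 h). STEAP3 was not called (log2 0.16 at 4 h over untreated cells). At 4 h neither tool called a gene of this list, and none had an unadjusted p under 0.05. Of 12 tested heme synthesis genes, 2 rose and 4 fell at 2 h. ALAD (log2 0.43) and PPOX (0.36) rose, and those that fell included ALAS1 (-1.01), CPOX (-0.48) and the glycine carrier SLC25A38 (-1.03). SLC25A38 (log2 1.06) and CPOX (0.52) were higher at 4 h than at 2 h, and ALAD was lower (-0.38), a call that DESeq2 did not make. For 4 h against 2 h edgeR called 28.1% of all tested genes. FECH, which inserts iron to make heme, was not called (log2 0.17 at 4 h over untreated cells). ALAS1, the first enzyme of heme synthesis, had 63.8 and 66.6 CPM in untreated cells, 35.4 and 29.4 CPM at 2 h, and 28.6 and 27.8 CPM at 4 h. It was the 1 heme synthesis gene called at 4 h (log2 -1.21, SE 0.12, edgeR adjusted p = 1.88e-04). The 5 genes that edgeR called at 4 h were HMOX1, ZNF469, GCLM and CYP1B1, which were higher, and ALAS1, which was lower. DESeq2 called 15 genes at 4 h, and of the 10 genes described here it called HMOX1 alone.

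Genes with the most similar course were sought among 11930 others with a mean of at least 2 CPM, by the root mean square difference of log2 CPM relative to the untreated mean over the 6 libraries. None came near HMOX1: the closest, ZNF469, lay 2.12 log2 units away, and NR4A3, the next, 2.97. ZNF469 had 17.4 and 17.1 CPM in untreated cells, 85.3 and 74.5 CPM at 2 h, and 117 and 130 CPM at 4 h, while NR4A3 was back at 0.930 and 1.22 CPM at 4 h. MAML3 (3.03), TENM4 (3.03) and ADM2 (3.05) followed. This distance grows with the size of a change, so that of HMOX1 cannot be compared with those of members with smaller changes. The closest companions of other members follow. Those of HMOX2 were GRPEL1 (0.03), RRP36 (0.04) and SEC11C (0.04). Those of FLVCR1 were EXO1 (0.04), MPP3 (0.04) and STARD13 (0.04). SLC48A1 was closest to MAFG (0.05) and KAZALD1 (0.06), and FTH1 to PEX14 (0.04), TRIM8 (0.04) and LRRC61 (0.05).

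Of the 5 epithelial markers CDH1 rose (log2 0.28, SE 0.09) and EPCAM fell (log2 -0.29, SE 0.09) at 2 h, and KRT19 was lower at 4 h than at 2 h (log2 -0.36, SE 0.11). Of 3 tested macrophage and blood cell markers, CD14 (log2 1.87, SE 0.36) and CSF1R (log2 0.54, SE 0.16) rose at 2 h and CD68 was not called (log2 0.10, SE 0.12). The 7 markers summed to 49.4 and 53.8 CPM in untreated cells, 63.3 and 55.4 CPM at 2 h, and 51.7 and 49.5 CPM at 4 h, with CD163 at 0 in every library and at most 5 reads of PTPRC. Of 2 tested fibroblast markers COL1A1 rose (log2 0.70, SE 0.14) and PDGFRB was not called (log2 -0.77, SE 0.79), and the 5 markers summed to 26.6 and 29.2 CPM in untreated cells, 48.6 and 41.6 CPM at 2 h, and 25.4 and 32.6 CPM at 4 h. CD14, CSF1R and COL1A1 were, like KRT19, lower at 4 h than at 2 h. Among all tested genes 31.7% were called at 2 h and 28.1% for 4 h against 2 h. The part of these markers in the results at 2 h was not tested.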

How the data were processed

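Total gene expression of PC3 cells was measured in 6 libraries (Trizol RNA, TruSeq kit, per the labels' protocols). The authors deposited, for each library, unnormalized counts of reads by gene symbol, followed by HTSeq's summary lines. Trimmomatic, STAR, SAMtools, deepTools and hg38 are named in the submitters' processing notes, without versions. The annotation is not given in the sources used here, nor is the strand setting. The 5 summary lines stayed out: reads outside genes were 5.48% to 6.88% and ambiguous reads 4.23% to 4.48% of a library.

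Differences were tested with R 4.3.3 and edgeR 4.0.16, with TMM scaling and filterByExpr (minimum count 10). The quasi-likelihood test was two-sided and ran on all 6 libraries (3 residual degrees of freedom). It was checked on simulated data with independent libraries and few changed genes. That setting does not cover a change as wide as the one at 2 h. Intervals of log2 fold changes are at 95%. CPM uses TMM-scaled totals; lengths are the merged exons of GENCODE 29, which matched 33164 of 33514 symbols. Alternatives were DESeq2 1.42.0, RLE size factors, no filter, a replicate block, only the compared groups and leaving out each library.

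The 10 genes, the 11 other lists and the motifs were chosen with earlier results of these data known. Of each other list the 3 genes with the smallest p at each time and 14 fixed genes were named; called genes beyond these were named after their values were seen. Ferritin pseudogenes had no row. Within each group the 2 libraries were farther apart than counting noise (9.11 to 34.2 chi-square units a gene), and each counted as its own sample. Protein sequences were not used here. Some genes that the naming rule or the lists would give are not reported here.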

Additional observations from a re-analysis of the deposited data

Results flagged for a closer look

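The effects at 2 h and 4 h differed by test for 3 of the 8 tested genes, in edgeR's comparison of 4 h with 2 h of heme. FLVCR1 was higher at 4 h than at 2 h (log2 0.75, edgeR adjusted p = 0.0012), with both 4 h libraries above both 2 h ones. HMOX2 was likewise higher at 4 h (log2 0.49, edgeR adjusted p = 0.00542). SLC48A1 was lower at 4 h (log2 -0.44, edgeR adjusted p = 0.0171). Only the FLVCR1 call held in every alternative fit. The HMOX2 call was lost without 4 h replicate 1 (log2 0.39). That of SLC48A1 was lost without 4 h replicate 1 (log2 -0.37) or without 4 h replicate 2 (log2 -0.47). Of all tested genes 28.1% were called in the same comparison.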

How the results depend on the processing

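DESeq2, RLE size factors, the fit without a filter, the replicate block and the fit of the compared groups gave the same member calls for HMOX1, HMOX2, FLVCR1, SLC48A1 and FTH1 in the 3 comparisons. Leaving out single libraries did not. A group left with 1 library was then taken to vary like the others. The share of all genes called in those fits is not given here, so the member counts cannot be set against it. Members called ranged from 3 to 6 at 2 h, stayed at 1 at 4 h, and ranged from 1 to 5 for 4 h against 2 h. The HMOX1 log2 difference of 4 h against 2 h ranged from -0.30 to 0.15. Genes not called changed sign: at 2 h BLVRA (-0.17 to 0.25) and FTL (-0.088 to 0.086), the last also at -0.0030 with DESeq2 and -0.011 without a filter; at 4 h HMOX2 (-0.16 to 0.040), BLVRA (-0.16 to 0.11), BLVRB (-0.086 to 0.041), FLVCR1 (-0.065 to 0.026) and FTL (-0.0018 to 0.23); and for 4 h against 2 h BLVRA (-0.27 to 0.15), FTH1 (-0.16 to 0.069) and FTL (-0.011 to 0.23). Per kilobase, the HMOX1 share was 21.7% in untreated cells, 93.5% at 2 h and 90.6% at 4 h, and the FTH1 share 37.8%, 43.3% and 40.7%; gene lengths set these shifts. The cause of the other changes was not tested.

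The labels do not say that replicate numbers pair the libraries, and deviations of same-numbered libraries correlated at -0.32 (2 h and untreated), 0.29 (4 h and untreated) and -0.20 (4 h and 2 h) over 11931 genes. With the replicate block the calls among all genes numbered 4809 at 2 h, 6 at 4 h and 4205 for 4 h against 2 h, and the members called 5, 1 and 3. With the numbers of the 2 h libraries crossed, an alternative added after seeing the data, the calls numbered 6277, 5 and 5789. With 2 libraries per group, the FTH1 call at 2 h was lost without any 1 of 3 libraries and kept without 2 h replicate 2, and ABCG2 and SLC40A1 were too shallow to compare.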
